A study of Homo sapiens with 17 samples.

Results

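Maraviroc at its IC50, the concentration that inhibits by 50%, was set against its solvent ethanol in MDA-MB-231 cells. The comparison rests on 2 arrays titled Maraviroc IC50 and 2 arrays titled ethanol, which are 4 of the 17 arrays of the study and 4 of its 13 arrays of MDA-MB-231. Treatment lasted 48 h and began 24 h after seeding, and total RNA was hybridised to Affymetrix arrays. The remaining MDA-MB-231 arrays were treated with Maraviroc at IC20 (20% inhibition), with the coded compound DZH_2 at IC50 or IC20, with DMSO, or left untreated; 4 further arrays are titled MCF10. The sources used here give no concentration of Maraviroc for the name IC50 and no number of cells at harvest. Nor do they tell whether the 2 arrays of a group stem from separate cultures, and each p-value therefore covers only the spread among arrays, possibly a technical one. Values are log2 signals of 17687 genes, and a difference is the mean of the Maraviroc IC50 arrays minus the mean of the ethanol arrays, with its standard error. That error, given after ±, comes from a spread per gene pooled over all MDA-MB-231 groups with replicates, and the limma p-values rest on it too. Replicate SDs were 0.546 in Maraviroc IC50 and between 0.277 and 0.366 in the other groups. Where the Maraviroc IC50 arrays of a gene lie far apart, its ± is therefore likely too small.

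Maraviroc is a small-molecule antagonist of a chemokine receptor, used in the treatment of HIV infection. MDA-MB-231 is a human triple-negative breast cancer line with a mesenchymal shape, which carries vimentin and lacks the oestrogen and progesterone receptors and E-cadherin. Chemokine receptors are G protein-coupled receptors that pass a signal from secreted chemokines to calcium release, MAP kinases and cell migration. MAP kinase signals end in transcription factors such as those of the JUN, FOS and ATF families, and dual-specificity phosphatases switch the MAP kinases off again. When amino acids, glucose or protein folding fall short, cells use a set of stress programmes whose transcripts include DDIT3, DDIT4 and the sestrins. The results below leave out the 8 largest rises and falls and give no account of the cell cycle genes as a group, although TYMS and BIRC5, which are also members of other families, are described with those.

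Of the 7 measured markers expected in MDA-MB-231, all lay above the signal floor in both groups, and all 7 were lower in the Maraviroc IC50 arrays. Their median was 10.89 and 9.54 on the Maraviroc IC50 arrays, against 12.75 and 12.41 on the ethanol arrays. CAV1, the coat protein of caveolae, read 9.04 and 8.35 on the Maraviroc IC50 arrays, against 12.75 and 12.41 on the ethanol arrays. VIM, the intermediate filament protein vimentin, read 15.48 and 15.27 under Maraviroc IC50 and 17.04 and 16.75 under ethanol. The groups did not overlap for either gene, and VIM remained far above the floor on all 4 arrays. Among all genes 25.7% had both Maraviroc IC50 arrays below both ethanol arrays. The other markers of this list, MSN, AKAP12, ZEB1, AXL and CD44, had differences of -3.50, -3.31, -2.68, -2.60 and -1.76. Of 8 markers expected to be absent, 7 had means below the floor in each group. The exception was KRT19, at 7.87 and 7.93 under Maraviroc IC50 and 9.49 and 9.58 under ethanol. At a limma adjusted p under 0.05, 2 of these 8 were called higher and 2 lower, KRT19 among the latter. The others so called had means below the floor in both groups. Among 7 basal epithelial markers 5 were below the floor in each group, and ITGB4, an integrin subunit, fell by 3.31. By the same test all 7 expected markers were called lower, against 15% of all genes. These 7 are bright, and 38.7% to 45.4% of all genes at 11 and over on the DMSO and untreated arrays were called lower. The calls of VIM, AKAP12 and CD44 were each lost in 1 alternative setting, and the VIM difference lay between -1.67 and -0.50 over the settings. In RNA pooled over a culture, fewer cells of one kind and less RNA per cell cannot be told apart.

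The Maraviroc IC50 arrays had a narrower range of signal than the ethanol arrays. Their interquartile range over genes was 4.07 and 4.05, against 4.37 and 4.56 on the ethanol arrays. Both quartiles moved inward. The 95th percentile overlapped, at 12.53 and 12.37 under Maraviroc IC50 and 12.53 and 12.61 under ethanol. Probe sets named as negative controls had a median of 5.16 and 5.08 under Maraviroc IC50 and 4.75 and 4.62 under ethanol. Which sequences they match was not examined here. Positive control probe sets had a median of 11.99 and 12.01 under Maraviroc IC50 and 12.68 and 12.50 under ethanol. The distance between the control medians was thus 6.83 and 6.92 on the Maraviroc IC50 arrays, against 7.94 and 7.87 on the ethanol arrays, with no overlap. The signal floor used here is the 75th percentile of 612 such negative controls over the 13 MDA-MB-231 arrays, a log2 signal of 6.05. Taken per array, this percentile was 6.42 and 6.46 under Maraviroc IC50 and 5.87 and 5.64 under ethanol. A Maraviroc IC50 value just above the floor can thus lie below the percentile of its own array.

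**Figure D1:**
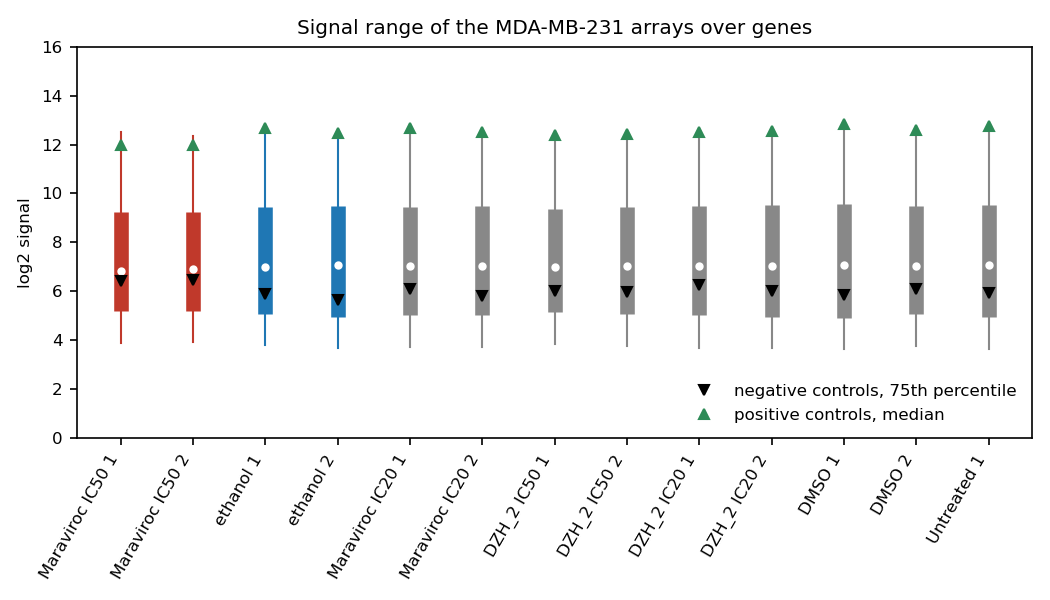
Log2 signal on each of the 13 MDA-MB-231 arrays over 17687 genes: thin lines span the 5th to the 95th percentile, thick bars the quartiles, and white dots mark the median. Downward triangles are the 75th percentile of the negative controls and upward triangles the median of the positive control probe sets; the 2 Maraviroc IC50 arrays have the highest downward and the lowest upward triangles.

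The sign of the difference moved with the level of the gene. Genes were grouped by their mean on the DMSO and untreated arrays, which enter neither side of the comparison. Below a log2 signal of 4 the median difference was 0.23, between 8 and 9 it was -0.05, and at 13 and over it was -0.80. Among the 654 genes of the highest group 8.26% were called higher and 45.4% lower. Maraviroc at IC20, which shares the ethanol arrays, had medians between -0.02 and 0.00 in the 11 level groups. After each array was scaled to a common interquartile range, the highest group had a median of 0.03, with 183 genes called higher and 165 lower. That scaling moved the group at 6 to 7 from 0.19 to 0.33. The highest group kept a negative median under 2 other normalizations, -0.65 after quantile normalization and -0.40 under cyclic loess. Whether the fall of bright genes remains thus depends on the normalization. The control probe sets moved in the same way as the level groups. Of the 612 negative control probe sets, 200 (32.7%) had both Maraviroc IC50 arrays above both ethanol arrays and 62 (10.1%) had them below. Of the 2197 positive control probe sets, 501 (22.8%) lay above and 1012 (46.1%) below. Among all genes 32.1% lay above and 25.7% below.

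**Figure D2:**
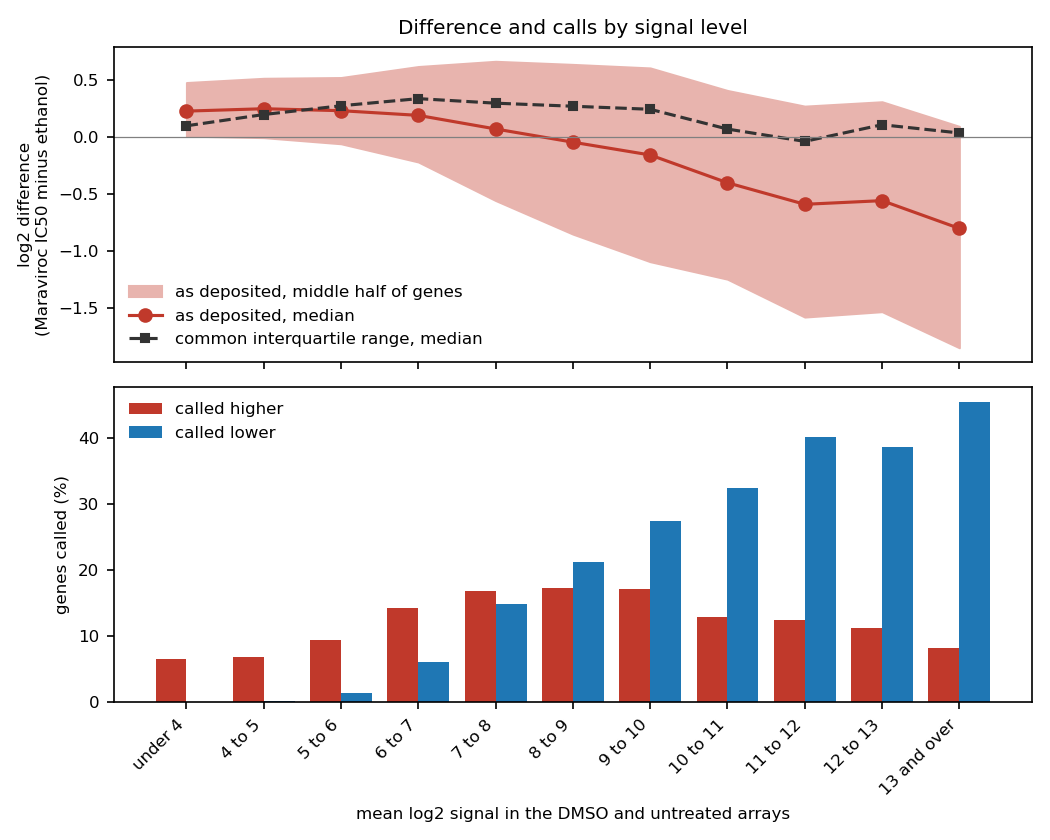
Top: median log2 difference, Maraviroc IC50 minus ethanol, in 11 groups of genes ordered by mean log2 signal on the DMSO and untreated arrays; the shaded band is the middle part of the genes (quartiles) and the dashed line the median after scaling to a common interquartile range. Bottom: percent of the genes called higher or lower; the median runs between 0.23 in the dimmest group and -0.80 in the brightest, and the dashed line ends at 0.03.

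The 2 Maraviroc IC50 arrays also stood further from each other than other replicates did. Over the 9463 genes above the floor on all 4 arrays, the median absolute gap between replicates was 0.52 under Maraviroc IC50 and 0.29 under ethanol. Gaps over 2 on the log2 scale were found for 253 genes between the Maraviroc IC50 arrays and for 10 genes between the ethanol arrays. CCN1, a matricellular growth regulator, read 13.78 and 9.41 on the Maraviroc IC50 arrays and 13.24 and 12.30 on the ethanol arrays. FN1, fibronectin, read 10.16 and 6.22 under Maraviroc IC50 and 9.87 and 9.75 under ethanol, and ID1, an inhibitor of bHLH factors, read 9.81 and 6.18 under Maraviroc IC50 and 10.06 and 10.23 under ethanol. For these 3 genes the first Maraviroc IC50 array lay near the ethanol arrays or above them, and the second far below. SASH1, a scaffold protein, ran the other way, at 7.71 and 10.47 under Maraviroc IC50 and 11.12 and 11.25 under ethanol. Over the 4778 called genes, 2258 (47.3%) differed more from ethanol in Maraviroc IC50 replicate 1 and the others more in replicate 2.

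Of the 10 genes with a gap over 2 between the ethanol arrays, 7 were lower on the second, and all 7 were also lower on the second Maraviroc IC20 array. ASNS, asparagine synthetase, read 9.78 and 9.69 under Maraviroc IC50 and 14.76 and 11.93 under ethanol; Maraviroc IC20 gave 14.95 and 13.15, and DMSO 15.20 and 14.96. CHAC1, a glutathione-degrading enzyme of the amino acid response, read 9.18 and 9.58 under Maraviroc IC50 and 12.49 and 8.88 under ethanol, with 12.65 and 10.99 under Maraviroc IC20. ASNS did not pass the test (difference -3.61 ± 1.40, limma adjusted p = 0.077), nor did CHAC1 (-1.30 ± 1.30, limma adjusted p = 0.51). Values that lean on these ethanol arrays are given with and without them below.

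In all, 4778 genes were called at a limma adjusted p under 0.05 (Benjamini-Hochberg over 17687 genes), 2122 higher (12%) and 2656 lower (15%) in Maraviroc IC50, which together are 27.0% of the genes. Of these, 691 rises (3.91% of genes) and 1312 falls (7.42%) held in each of 16 alternative settings of the normalization, the arrays and the model. Rises made up 44.4% of the calls as deposited, 34% when the 4 arrays were fitted alone, 56.7% after median centring and 63.8% after scaling to a common interquartile range. The rises depended on the ethanol arrays: 1105 were called without ethanol replicate 1 and 1346 without ethanol replicate 2, and the falls then numbered 1890 and 1853. The median difference of all genes was 0.11, which median centring moved by 0.17, and cyclic loess by -0.11. For 4777 of the 4778 called genes both Maraviroc IC50 arrays lay beyond both ethanol arrays. Separate groups are therefore a trait of nearly every call and add no support to a called gene. In a fit with 1 array left out, the group of that array adds nothing to the pooled spread. Without a Maraviroc IC50 array the most variable group is missing from it, so such counts are likely too high. Family counts below are read against these 12% and 15%, although the shares depend on signal level. At a mean of 11 to 12 on the DMSO and untreated arrays, 12.4% of genes were called higher and 40.1% lower. A family of bright genes can thus exceed 15% lower without differing from other genes of its level.

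The floor bounded 441 of the 2656 falls, whose Maraviroc IC50 mean lay below it, and 545 of the 2122 rises, whose ethanol mean did. Among the 9463 genes above the floor on all 4 arrays, 1532 were called higher (16.2%) and 2067 lower (21.8%). Among the 6271 genes with both means below the floor, 305 were called higher (4.86%) and 47 lower (0.749%). These dim calls were rises more often than falls, as the negative control probe sets were. Olfactory receptors, which detect odours in the nose and have no known place in a breast line, showed the same: of 348 members 33 were called higher (9.48%) and none lower, and 298 were below the floor on all 4 arrays. The family's median was 4.67 and 4.60 under Maraviroc IC50 and 4.38 and 4.27 under ethanol, and between 4.12 and 4.47 on the other 9 MDA-MB-231 arrays. Of the 33 calls, 1 held in every alternative, 13 rises were called without ethanol replicate 1 and 7 without ethanol replicate 2, and 4 olfactory receptors were called once values were raised to the floor. The other families not known in breast cells gave 2 rises among 24 taste receptors, 2 among 26 beta-defensins, and 3 rises and 2 falls among 85 keratin-associated proteins. No keratin-associated protein was called higher without Maraviroc IC50 replicate 2 or without either ethanol array, and no beta-defensin without ethanol replicate 2. Rises that start below the floor are therefore named below only with that fact beside them.

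Most of the 22 measured chemokine receptors were dim; the receptor that Maraviroc is known to bind is not among them and was not analysed here. Both means lay below the floor for 17 of them, and 3 were above it on all 4 arrays. CCRL2, an atypical receptor that binds chemerin, read 7.94 and 7.34 under Maraviroc IC50 and 8.27 and 8.75 under ethanol (-0.87 ± 0.31, limma adjusted p = 0.052). ACKR2, a scavenger of inflammatory chemokines, read 6.85 and 7.36 under Maraviroc IC50 and 7.07 and 7.24 under ethanol, and XCR1 read 6.72 and 7.15 under Maraviroc IC50 and 6.95 and 6.56 under ethanol. None of these 3 passed the test, and the groups overlapped for ACKR2 and XCR1. CCR2, a receptor of monocyte attractants, read 7.45 and 6.78 under Maraviroc IC50 and 6.65 and 5.70 under ethanol (0.94 ± 0.36, limma adjusted p = 0.076), with arrays on either side of the floor. CXCR5 and CCR8, the 2 members called higher (9.09%), had ethanol means below the floor and differences of 0.99 and 1.01, and neither call held in every alternative; without either ethanol array 1 receptor was called. Among 37 chemokines, the ligands of these receptors, 3 were called higher (8.11%) and none lower. The shares called higher, of receptors and of chemokines, were both below the 12% of all genes. CXCL8, a neutrophil attractant, read 10.81 and 9.45 under Maraviroc IC50 and 7.01 and 6.24 under ethanol (3.51 ± 0.41). CCL7, a monocyte attractant, read 6.67 and 6.63 under Maraviroc IC50 and 5.08 and 5.09 under ethanol. The groups were separate for both genes, and the CCL7 rise started below the floor. CXCL3 rose by 1.28, a call that did not hold in every alternative. Without Maraviroc IC50 replicate 1 or replicate 2, 5 chemokines were called higher, and without either ethanol array 2 were.

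Above the floor on all 4 arrays, 1287 rises and 1860 falls reached 1 on the log2 scale. The 12 largest rises after the 8 that were set aside lay between 3.72 and 4.47, and all 12 held in every alternative (limma adjusted p between 2.50e-06 and 0.00076). DUSP1, a phosphatase that inactivates MAP kinases, read 12.41 and 9.53 under Maraviroc IC50 and 6.89 and 6.11 under ethanol. SQSTM1, the autophagy receptor p62, read 17.90 and 17.12 under Maraviroc IC50 and 13.50 and 13.83 under ethanol. GDF15, a secreted stress factor of the TGF-beta superfamily, read 10.64 and 11.87 under Maraviroc IC50 and 7.25 and 7.02 under ethanol. No overlap between the groups was a condition for choosing the 12, and the Maraviroc IC50 arrays stood well apart from each other for DUSP1 and TRAF1. PMEPA1, a membrane protein that restrains SMAD signalling, rose by 4.26 ± 0.42, and DNAJB2, an HSP70 co-chaperone, by 4.23 ± 0.41. CYP1B1, a cytochrome P450 of steroid and xenobiotic metabolism, rose by 4.09 ± 0.35, and TRAF1, an adaptor of TNF receptors, by 3.95 ± 0.66. TRAF1 read 12.56 and 9.53 under Maraviroc IC50 and 7.24 and 6.94 under ethanol, so its pooled ± understates the spread of its Maraviroc IC50 arrays. HK2, the hexokinase that opens glycolysis, rose by 3.84 ± 0.27, PTGES, a prostaglandin E synthase, by 3.76 ± 0.49, and CLDN12, a claudin, by 3.85 ± 0.35. CSRNP1, a nuclear protein, and POLR2J4, a relative of the polymerase subunit gene POLR2J, rose by 3.75 and 3.72; POLR2J4 has near-identical copies, so its signal is uncertain. At IC20 the same 12 genes differed from the shared ethanol arrays by between -0.72 and 1.00.

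The 12 largest falls after the 8 set aside lay between -5.36 and -4.84, and 11 of them held in every alternative. CAPN2, the large subunit of the protease calpain-2, read 9.66 and 8.73 under Maraviroc IC50 and 14.49 and 14.56 under ethanol. IGFBP7, a secreted protein that binds insulin-like growth factors, read 11.18 and 10.48 under Maraviroc IC50 and 15.74 and 15.63 under ethanol. ARHGDIB read 8.11 and 8.03 under Maraviroc IC50 and 13.37 and 13.19 under ethanol. Separate groups and arrays above the floor were conditions for choosing the 12. NFE2L3, at 6.10 on the second Maraviroc IC50 array, and MAPRE2, at 6.28 on the first, lay below the negative control percentile of that array (6.46 and 6.42). MAPRE2, a protein of growing microtubule ends, fell by 4.92 ± 0.32, P3H2, a collagen prolyl 3-hydroxylase, fell by 4.88 ± 0.27, and RBMS2, an RNA-binding protein, fell by 5.04 ± 0.37. The transcription regulators CUX1, NFE2L3 and CDCA7L had differences of -4.94, -4.93 and -4.97. ANKRD36C, an ankyrin repeat gene, and APOBEC3C, a cytidine deaminase, differed by -5.36 and -4.84; both have near-identical relatives, so their signals are uncertain. MSMP, a small secreted protein, was the call that did not hold: it read 7.80 and 9.64 under Maraviroc IC50 and 12.17 and 15.21 under ethanol, against 8.60 and 7.98 under DMSO and 10.90 in untreated cells. Its difference from the DMSO and untreated arrays was -0.43, where the other 11 falls lay between -5.90 and -4.13.

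**Figure D3:**
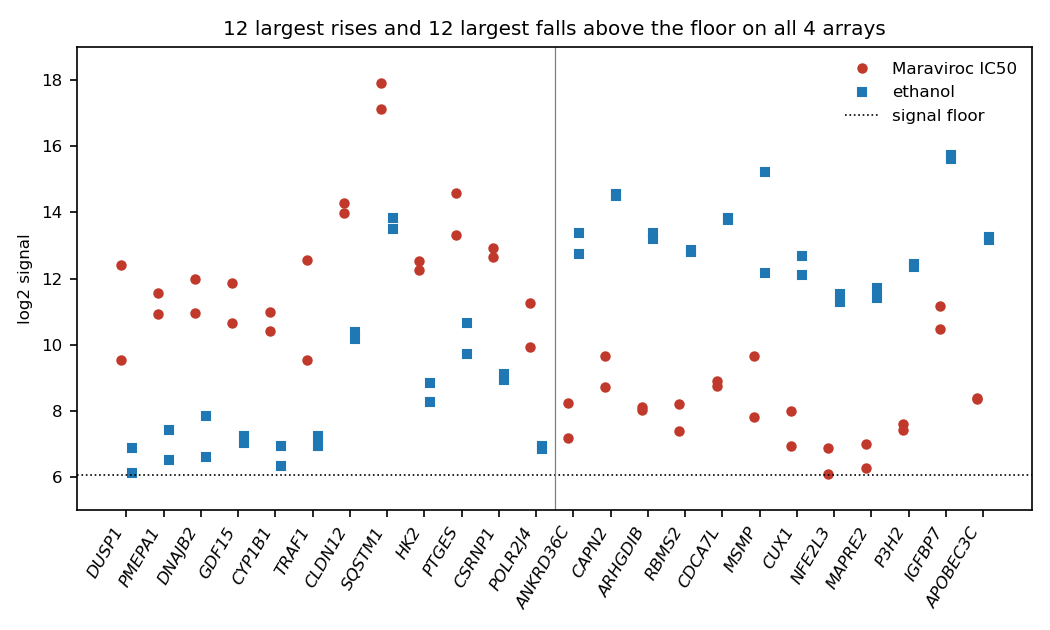
Log2 signal on each array for the 12 largest rises (left of the line) and the 12 largest falls (right of it) above the floor, after the 8 largest each way were set aside; circles are the 2 Maraviroc IC50 arrays and squares the 2 ethanol arrays, and the dotted line is the signal floor. Separate groups were a condition for choosing these genes, and both Maraviroc IC50 points of NFE2L3 and MAPRE2 lie near the floor.

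Of 94 gene families, 16 are described: the 8 with the highest share of members called higher and the 8 with the highest share called lower. These shares chose the families, so they are given as a description. The families were polyamine metabolism, dual-specificity phosphatases, V-ATPase subunits, GADD45, sestrin and DDIT genes, SMAD genes and TGF-beta superfamily receptors, glycolysis, hypoxia targets and bZIP factors for the rises. For the falls they were serine, one-carbon and asparagine synthesis, importins and exportins, nucleoporins, chromatin remodellers, aminoacyl-tRNA synthetases, caspases, the TRiC chaperonin and laminins.

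**Figure D4:**
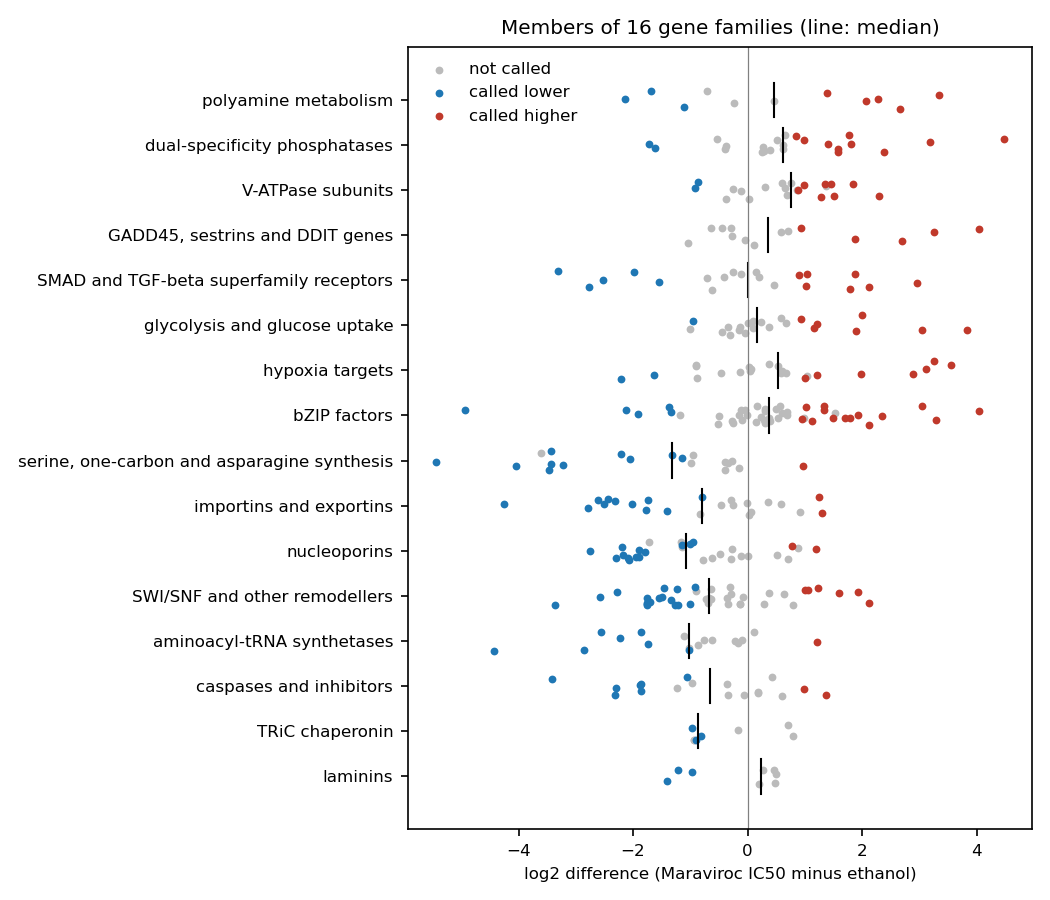
Log2 difference, Maraviroc IC50 minus ethanol, of each member of the 16 described families, 1 row a family, with the 8 chosen for rises above the 8 chosen for falls; points are genes, coloured by call, and the black line is the family median. Medians run between -1.32 (serine, one-carbon and asparagine synthesis) and 0.75 (V-ATPase subunits), and every row but those of the TRiC chaperonin, the laminins and the GADD45, sestrin and DDIT genes holds calls in both directions.

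Dual-specificity phosphatases, which remove phosphate from the threonine and tyrosine of MAP kinases, had 10 of 23 members called higher and 2 lower. Their median was 0.62, against 0.11 for all genes. It is the difference of DUSP19, whose means of 5.06 and 4.44 lay below the floor, as did both means of 7 of the 23 members. Above the floor on all 4 arrays were 8 of the 10 rises, while DUSP8 and DUSP21 were called with both means below it. DUSP3 read 12.14 and 12.18 under Maraviroc IC50 and 8.69 and 9.25 under ethanol (3.19 ± 0.29, limma adjusted p = 1.17e-05). DUSP10, which acts on the stress kinases JNK and p38, read 9.20 and 8.20 under Maraviroc IC50 and 6.09 and 6.56 under ethanol. DUSP6, which acts on ERK, moved the other way and read 13.09 and 13.02 under Maraviroc IC50 and 14.37 and 15.18 under ethanol (-1.73 ± 0.34). The groups were separate for all 3. DUSP14 rose by 1.81, and DUSP11, an RNA phosphatase, fell by 1.62. Together with DUSP1, the rises of DUSP3, DUSP10 and DUSP14 and the fall of DUSP6 held in every alternative. Without ethanol replicate 1 the rises numbered 4, and without ethanol replicate 2 they numbered 8.

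The bZIP factors, which bind DNA as pairs of leucine zipper proteins, include the endpoints of MAP kinase and stress signals. They had 14 of 47 members called higher and 5 lower, with a median of 0.37. Above the floor on all 4 arrays were 8 of the rises and all 5 falls, and HLF was called higher with both means below it. JUNB read 10.80 and 10.98 under Maraviroc IC50 and 7.60 and 8.10 under ethanol, and JUND read 11.56 and 12.48 under Maraviroc IC50 and 8.50 and 8.95 under ethanol. Both are partners in AP-1, and the groups were about 3 log2 units apart for each. MAFG, a small MAF protein that pairs with NFE2-like factors, read 7.81 and 8.41 under Maraviroc IC50 and 5.68 and 5.86 under ethanol, so its rise started below the floor. CEBPB, ATF3 and MAFF rose by 2.12, 1.79 and 1.48, ATF3 with an ethanol mean below the floor. On the falling side NFE2L3 read 6.89 and 6.10 under Maraviroc IC50 and 11.30 and 11.54 under ethanol, the largest fall of the family. ATF6, the membrane-bound sensor of unfolded protein, read 8.76 and 8.98 under Maraviroc IC50 and 10.95 and 11.02 under ethanol (-2.12 ± 0.34), whereas its relative ATF6B read 14.07 and 14.10 under Maraviroc IC50 and 12.36 and 12.40 under ethanol (1.71 ± 0.25). The 2 genes thus moved in opposite directions with little spread between arrays. CREB1, which binds the cyclic AMP response element, fell by 1.92 ± 0.25, and ATF2 fell by 1.37. Of the 19 calls, 8 rises and 3 falls held in every alternative, and the falls numbered 3 without ethanol replicate 2. The median was 0.13 without Maraviroc IC50 replicate 1.

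The GADD45, sestrin and DDIT genes, induced by DNA damage, amino acid shortage and unfolded protein, had 5 of 14 members called higher and none lower, with a median of 0.35. DDIT3, the stress factor CHOP, read 9.41 and 10.13 under Maraviroc IC50 and 6.42 and 5.04 under ethanol (4.04 ± 0.61, limma adjusted p = 0.00038), with an ethanol mean below the floor. DDIT4, an inhibitor of mTORC1, read 15.14 and 16.92 under Maraviroc IC50 and 13.64 and 11.93 under ethanol. PPP1R15A, the phosphatase subunit that reverses the translation block of eIF2, read 13.68 and 12.74 under Maraviroc IC50 and 11.18 and 9.85 under ethanol. In each case both Maraviroc IC50 arrays were above both ethanol arrays, and the second ethanol array was the lower one. SESN2, a leucine-sensing sestrin, rose by 1.87 ± 0.31 and GADD45B by 0.94. The first 4 rises held in every alternative and GADD45B did not. The family's median was 0.09 without ethanol replicate 2 and 0.11 without Maraviroc IC50 replicate 2.

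The promoters of 4 of these risers hold the full cyclic AMP response element and are shown because they are called members of 3 different families. The letters searched were TGACGTCA, which read the same on both strands, in 250 bases before and 50 after each gene's start in RefSeq (GRCh38.p14). Capitals mark the element, and each stretch of 80 bases runs 5′ to 3′ on the gene's strand.
DUSP1 (chr5:172771277-172771356, minus strand): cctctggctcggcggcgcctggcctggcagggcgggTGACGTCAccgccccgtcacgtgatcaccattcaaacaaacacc
PPP1R15A (chr19:48872327-48872406, plus strand): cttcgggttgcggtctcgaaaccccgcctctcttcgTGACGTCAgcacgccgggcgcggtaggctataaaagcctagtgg
JUND (chr19:18281779-18281858, minus strand): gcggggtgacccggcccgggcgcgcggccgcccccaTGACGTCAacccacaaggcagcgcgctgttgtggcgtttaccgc
MAFF (chr22:38201904-38201983, plus strand): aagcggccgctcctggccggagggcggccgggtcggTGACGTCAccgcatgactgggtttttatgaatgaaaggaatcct
The element starts 125, 58, 200 and 54 bases before the gene's start in DUSP1, PPP1R15A, JUND and MAFF. It was found in 6 of the 41 bZIP promoters searched, 4 of them of genes called higher and none of genes called lower. It was found in 2 of 19 phosphatase promoters, DUSP1 and DUSP8, and in 1 of 12 of the GADD45, sestrin and DDIT genes. Among all 14250 genes with a promoter, 2.62% held it, with 3.59% of genes called higher and 3.68% of genes called lower, so its share was nearly the same in both directions. Among the 8880 of them with a mean above the floor on the DMSO and untreated arrays, 3.32% held it, close to both. A match is a description of the letters and not a site shown to be bound.

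SMAD genes and receptors of the TGF-beta superfamily, which carry signals of TGF-beta, activins and bone morphogenetic proteins to the nucleus, split between the directions. Of 20 members 7 were called higher and 5 lower, and the median was 0.01, whose sign changed with the setting (-0.17 under cyclic loess, 0.18 after median centring). Among the receptors, TGFBR1 read 12.41 and 12.37 under Maraviroc IC50 and 10.19 and 10.82 under ethanol (1.88 ± 0.30), while its partner TGFBR2 read 12.97 and 13.05 under Maraviroc IC50 and 14.84 and 15.16 under ethanol (-1.99 ± 0.27, limma adjusted p = 0.00017). The groups were separate for both. ACVR1, a receptor of bone morphogenetic proteins, read 10.37 and 11.51 under Maraviroc IC50 and 7.80 and 8.17 under ethanol (2.96 ± 0.38), and TGFBR3, the co-receptor betaglycan, fell by 2.52 ± 0.52. Among the transducers, SMAD4, the partner shared by all receptor-activated SMADs, read 7.66 and 9.03 under Maraviroc IC50 and 11.62 and 11.71 under ethanol (-3.31 ± 0.37, limma adjusted p = 4.43e-05). SMAD7, an inhibitor of the pathway, read 10.92 and 10.82 under Maraviroc IC50 and 8.91 and 8.58 under ethanol, whereas the inhibitor SMAD6 read 7.55 and 6.58 under Maraviroc IC50 and 9.53 and 10.16 under ethanol. Both inhibitors were separate between the groups, in opposite directions. ACVR1B rose by 1.03, a call lost in 6 alternatives. The calls of ACVR1, SMAD7, TGFBR1, SMAD4, SMAD6, TGFBR3 and TGFBR2 held in every alternative. Rises numbered 3 without ethanol replicate 1 and 4 without Maraviroc IC50 replicate 1.

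**Figure D5:**
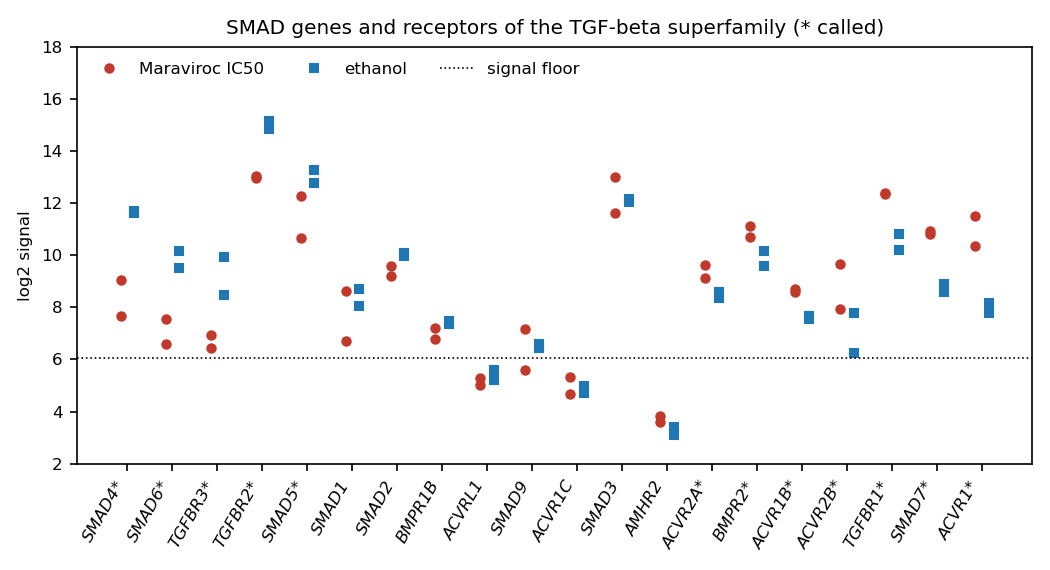
Log2 signal on each array for the 20 SMAD genes and receptors of the TGF-beta superfamily, ordered by their difference, most negative at the left; circles are the 2 Maraviroc IC50 arrays, squares the 2 ethanol arrays, the dotted line is the signal floor and asterisks mark called genes. SMAD4, SMAD6, TGFBR3, TGFBR2 and SMAD5 lie lower and 7 genes at the right higher under Maraviroc IC50.

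Glycolysis and glucose uptake genes had 7 of 22 members called higher and 1 lower, with a median of 0.17, close to the 0.11 of all genes. HK2 read 12.52 and 12.27 under Maraviroc IC50 and 8.27 and 8.84 under ethanol (limma adjusted p = 2.50e-06). SLC2A3, the glucose transporter GLUT3, read 14.79 and 15.24 under Maraviroc IC50 and 11.53 and 12.40 under ethanol (3.05 ± 0.40), and ENO2, the neuronal enolase isoform, read 7.51 and 8.57 under Maraviroc IC50 and 5.50 and 6.58 under ethanol, around the floor. These 3 rises held in every alternative, with both Maraviroc IC50 arrays above both ethanol arrays. PFKM, a phosphofructokinase subunit, rose by 1.16. ENO1, the main enolase, read 17.42 and 16.78 under Maraviroc IC50 and 17.83 and 18.29 under ethanol (-0.96 ± 0.30); its call was lost in 9 alternatives, and its sign turned to 0.23 under a common interquartile range. Rises numbered 4 without ethanol replicate 1 and 4 without Maraviroc IC50 replicate 2, and the median lay between 0.04 and 0.50 with 1 array left out.

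Hypoxia targets, genes switched on by HIF when oxygen is low, had 7 of 23 members called higher and 2 lower, with a median of 0.52. ADM, the vessel-widening peptide adrenomedullin, read 12.16 and 13.73 under Maraviroc IC50 and 8.89 and 9.88 under ethanol (3.56 ± 0.60), and P4HA2, a collagen prolyl 4-hydroxylase subunit, read 12.91 and 13.43 under Maraviroc IC50 and 9.16 and 10.95 under ethanol (3.11 ± 0.49). ANGPTL4, a secreted inhibitor of lipoprotein lipase, read 7.23 and 6.56 under Maraviroc IC50 and 4.04 and 3.98 under ethanol, so it crossed the floor. All 3, and DDIT4, were separate between the groups and held in every alternative. PDK1, the kinase that holds back pyruvate dehydrogenase, fell by 1.63 ± 0.34, and ERO1A, an oxidase of the endoplasmic reticulum, fell by 2.21 ± 0.47. The members thus did not move together. Without ethanol replicate 1 the rises numbered 4 and the median was -0.04, and without Maraviroc IC50 replicate 2 the falls numbered 4.

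Polyamine metabolism had the highest share of rises, 5 of 11 members, beside 3 falls, and a median of 0.47. The members that rose break polyamines down or feed their precursor, and those that fell build them. SAT1 and SAT2 are named as acetyltransferases of spermidine and spermine, although the substrate of SAT2 is less certain. SAT2 read 10.75 and 11.65 under Maraviroc IC50 and 7.80 and 7.92 under ethanol (3.34 ± 0.34, limma adjusted p = 2.33e-05), and SAT1 read 12.83 and 11.33 under Maraviroc IC50 and 9.63 and 10.38 under ethanol (2.07 ± 0.45). SMOX, spermine oxidase, read 10.42 and 10.25 under Maraviroc IC50 and 8.24 and 7.87 under ethanol. Each was separate between the groups. ARG2, the mitochondrial arginase that supplies ornithine, rose by 2.66 ± 0.50 and PAOX, a polyamine oxidase, by 1.39. On the other side SRM, spermidine synthase, read 10.87 and 8.07 under Maraviroc IC50 and 11.63 and 11.59 under ethanol (-2.13 ± 0.61), SMS, spermine synthase, fell by 1.11 ± 0.26, and AMD1, which makes the donor of the aminopropyl group, fell by 1.69 ± 0.36. The rises of SAT2, SMOX and ARG2 held in every alternative. None of the 3 falls did: they numbered 0 when the 4 arrays were fitted alone, 1 without ethanol replicate 1, and 2 without ethanol replicate 2 or without Maraviroc IC50 replicate 2.

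V-ATPase subunits form the proton pump that acidifies lysosomes, with a membrane ring (V0), a catalytic head (V1) and accessory proteins. Of 21 members 8 were called higher and 2 lower, and the median of 0.75 was the highest of the 16 families. Among the accessory proteins, ATP6AP1 read 11.94 and 11.50 under Maraviroc IC50 and 9.36 and 9.49 under ethanol (2.29 ± 0.25, limma adjusted p = 3.76e-05), and ATP6AP2 read 12.72 and 12.70 under Maraviroc IC50 and 11.22 and 11.20 under ethanol (1.50 ± 0.23). In the membrane part, ATP6V0B read 12.79 and 12.37 under Maraviroc IC50 and 10.47 and 10.99 under ethanol (1.85 ± 0.36), and ATP6V0D1 rose by 1.28. The groups were separate for all 4, and these 4 calls held in every alternative. In the head, ATP6V1G1 read 12.10 and 11.24 under Maraviroc IC50 and 10.14 and 10.30 under ethanol (1.45 ± 0.29). The falls, ATP6V0E2 at -0.87 and ATP6V1H at -0.91, were lost in 9 and 12 alternatives. Under a common interquartile range the family had 15 rises and no fall, without either ethanol array no fall, and without Maraviroc IC50 replicate 1 a single fall.

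The promoters of 2 of these subunits hold an extended E-box, TCACGTGA, which reads the same on both strands and is known as a sequence bound by the lysosomal regulators TFEB and TFE3. They are shown for that reason, with the E-box in capitals, from the same RefSeq promoters.
ATP6V0D1 (chr16:67481174-67481253, minus strand): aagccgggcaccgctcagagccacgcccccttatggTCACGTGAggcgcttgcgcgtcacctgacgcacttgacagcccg
ATP6V1G1 (chr9:114587674-114587753, plus strand): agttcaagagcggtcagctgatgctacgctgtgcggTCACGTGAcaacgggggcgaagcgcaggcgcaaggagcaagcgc
It starts 60 and 59 bases before the gene's start in ATP6V0D1 and ATP6V1G1. These were 2 of the 15 V-ATPase promoters searched, and both genes were called higher. The same letters are present in the DUSP1 promoter, 109 bases before the start and in lower case in the stretch printed above, and in the MAFF promoter at 197 bases. Among all promoters 1.43% held the E-box, with 2.55% of genes called higher and 2.11% of genes called lower. Among the 8880 genes with a mean above the floor on the DMSO and untreated arrays the share was 2.05%. The other 13 V-ATPase promoters lack these letters in this window, which says nothing of the factors.

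Genes of serine, one-carbon and asparagine synthesis, which make the carbon units and bases for nucleotides, had the highest share of falls: 10 of 19 members were called lower and 1 higher, with a median of -1.32. In purine synthesis, PAICS read 9.83 and 9.36 under Maraviroc IC50 and 13.90 and 13.38 under ethanol (-4.05 ± 0.31, limma adjusted p = 3.50e-06), and ATIC read 10.46 and 10.10 under Maraviroc IC50 and 13.98 and 13.44 under ethanol (-3.43 ± 0.32). MTHFD1, which interconverts folate-bound carbon units, read 10.03 and 8.52 under Maraviroc IC50 and 12.76 and 12.23 under ethanol (-3.22 ± 0.43). The groups lay far apart for all 3. TYMS, thymidylate synthase and also in the cell cycle list, fell by 5.44 ± 0.59, and CTPS1, which makes CTP, fell by 2.04. These 5 falls held in every alternative. In serine synthesis PHGDH, PSAT1 and PSPH had differences of -3.48, -3.43 and -1.15, and none of these calls held throughout; PSAT1 read 11.05 and 10.82 under Maraviroc IC50 and 15.63 and 13.09 under ethanol. ALDH1L2 was called higher by 0.97 with an ethanol mean below the floor. Without ethanol replicate 1 the falls numbered 5, and without ethanol replicate 2 they numbered 9.

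Aminoacyl-tRNA synthetases, which load each tRNA with its amino acid, had 7 of 17 members called lower and 1 higher, with a median of -1.02. That share of falls, 41.2%, is near the shares of all genes that were bright on the DMSO and untreated arrays. Those shares were 40.1% at 11 to 12 and 45.4% at 13 and over. FARSB, the beta subunit of the phenylalanine enzyme, read 8.64 and 8.29 under Maraviroc IC50 and 13.29 and 12.48 under ethanol (-4.42 ± 0.32, limma adjusted p = 2.75e-06). It was the call of this family that held in every alternative. EPRS1 read 7.67 and 7.88 under Maraviroc IC50 and 10.38 and 8.89 under ethanol (-1.86 ± 0.45), and IARS1 read 10.50 and 9.60 under Maraviroc IC50 and 12.90 and 11.68 under ethanol (-2.24 ± 0.58). For both, the second ethanol array was the lower one and still above both Maraviroc IC50 arrays. KARS1 fell by 1.03, and TARS1, the threonine enzyme, was called higher by 1.20, a call lost in 6 alternatives. The falls numbered 1 without ethanol replicate 1, 6 without ethanol replicate 2, and 3 with the 4 arrays alone or under a common interquartile range.

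Importins and exportins carry proteins and RNA through the nuclear pore, and nucleoporins build the pore. Of 23 importins and exportins 11 were called lower and 2 higher, with a median of -0.80. KPNA2, an importin alpha, read 10.88 and 8.79 under Maraviroc IC50 and 14.41 and 13.76 under ethanol (-4.25 ± 0.52), and CSE1L, which returns importin alpha to the cytoplasm, read 9.88 and 9.54 under Maraviroc IC50 and 12.69 and 12.30 under ethanol (-2.78 ± 0.25, limma adjusted p = 1.14e-05). The groups were separate for both, with the KPNA2 arrays under Maraviroc IC50 apart by more than those under ethanol. IPO8 fell by 2.51 ± 0.25 and XPO7 fell by 2.32 ± 0.26, whereas IPO13 rose by 1.30 ± 0.27 and TNPO1 by 1.24. Of these calls 9 falls and 1 rise, IPO13, held in every alternative. Without ethanol replicate 1 the median was -0.51 and TNPO1 was not called. Of 28 nucleoporins 13 were called lower and 2 higher, with a median of -1.08. NUP155, a scaffold part of the pore, read 8.82 and 8.88 under Maraviroc IC50 and 12.03 and 11.18 under ethanol (-2.75 ± 0.31), and NUP153, of the nuclear basket, read 10.65 and 10.05 under Maraviroc IC50 and 12.25 and 12.62 under ethanol. NUP88 fell by 2.30 and the membrane-spanning NUP210 fell by 2.18, each with no overlap. POM121 and POM121C, at -1.90 and -1.95, have near-identical sequences, so their separate signals are uncertain. NUP58 and NUP42 were called higher by 1.19 and 0.78, and neither rise held in every alternative, while 8 of the 13 falls did; the median was -0.55 without Maraviroc IC50 replicate 2.

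Chromatin remodellers of the SWI/SNF, CHD and INO80 classes, which slide or evict nucleosomes, were listed together with BRD and ARID genes, not all of which do so. Of the 40 listed members 17 were called lower and 6 higher, with a median of -0.68. SMARCC2, a core subunit of SWI/SNF, read 11.95 and 11.35 under Maraviroc IC50 and 13.83 and 14.04 under ethanol (-2.28 ± 0.26, limma adjusted p = 5.53e-05). BRD7, a bromodomain subunit, read 8.07 and 7.35 under Maraviroc IC50 and 10.33 and 10.26 under ethanol, and BRD8, of the TIP60 acetyltransferase complex, read 8.68 and 8.44 under Maraviroc IC50 and 10.39 and 10.25 under ethanol. All 3 were separate between the groups. ARID5B, an AT-rich DNA-binding protein, fell by 3.36 ± 0.50, and its relative ARID5A rose by 1.93 ± 0.31. INO80B, a subunit of the INO80 complex, rose by 2.11 ± 0.34, and ARID1B and PBRM1 rose by 1.00 and 1.23. The rises of ARID5A and INO80B and 8 of the falls held in every alternative. Without ethanol replicate 1 the falls numbered 9 and the rises 2, and without ethanol replicate 2 they numbered 11 and 3.

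Caspases, the proteases of cell death, and genes that regulate them had 7 of 18 members called lower and 2 higher, with a median of -0.66. The regulators include APAF1 and DIABLO, which are not caspase inhibitors, and DIABLO was among the 7 at -1.05. CASP8, the initiator caspase of death receptors, read 9.22 and 9.24 under Maraviroc IC50 and 11.57 and 11.50 under ethanol (-2.31 ± 0.27, limma adjusted p = 7.31e-05). CFLAR, which blocks CASP8, read 10.85 and 10.95 under Maraviroc IC50 and 12.70 and 12.82 under ethanol (-1.86 ± 0.24). Protease and inhibitor were thus both lower, with the arrays of each group close together. CASP2 fell by 1.87, CASP6 fell by 2.30 to a mean below the floor, and BIRC5, the inhibitor survivin and also a cell cycle gene, fell by 3.41, likewise to a mean below the floor. CASP9, the initiator of the mitochondrial route, was called higher by 1.38 and XIAP, its inhibitor, by 0.98. The falls of BIRC5, CASP8, CASP2 and CFLAR held in every alternative; without ethanol replicate 1 neither rise was called, and without ethanol replicate 2 or Maraviroc IC50 replicate 2 a single rise was. The median was -0.34 without Maraviroc IC50 replicate 1.

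The last 2 families rest on few and fragile calls. The TRiC chaperonin, a ring that folds actin and tubulin, had 3 of 8 members called lower and a median of -0.86. Its share of falls, 37.5%, is near the 38.7% of all genes at 12 to 13 on the DMSO and untreated arrays. CCT5 read 13.34 and 12.63 under Maraviroc IC50 and 14.04 and 13.87 under ethanol (-0.97 ± 0.28), and CCT4 and CCT3 had differences of -0.90 and -0.82. None of the 3 calls held in every alternative, none was made without ethanol replicate 1, and 1 was made without ethanol replicate 2. Under a common interquartile range the family's median was -0.09. Laminins, the sheet-forming proteins of basement membranes, had 3 of 8 members called lower, although their median was 0.23. LAMC1 read 12.45 and 12.27 under Maraviroc IC50 and 13.14 and 13.52 under ethanol (-0.97 ± 0.25). LAMB1 and LAMA2 had differences of -1.41 and -1.21, LAMB1 to a mean below the floor and LAMA2 with both means below it, so for these a lower level is not resolved from the background. The laminin median turned to -0.04 without ethanol replicate 2 and to -0.19 without Maraviroc IC50 replicate 2.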

How the data were processed

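Each deposited array holds log2 signals of 24351 probe sets, which were used unaltered; for the authors' summarisation and normalization, nothing is stated in the sources used here. RNA was labelled with the GeneChip WT PLUS kit, per the labels' protocols. Groups were taken from the sample titles. Of the probe sets, 2903 were controls, 3739 lacked a gene in the platform annotation, and 17709 had 1 gene symbol; the brightest probe set stood for each of the 20 genes that had more than 1, which left 17687 genes. Arrays carry no counting depth, and their number limits the precision.

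A single limma 3.58.1 model (R 4.3.3) covered the 6 MDA-MB-231 groups that have 2 arrays each (12 arrays), with 6 residual degrees of freedom, a 2-sided test of Maraviroc IC50 minus ethanol, Benjamini-Hochberg adjustment over 17687 genes and a threshold of 0.05. On simulated data with the same design and 200 planted genes, 13.4% were recovered at a log2 difference of 1, 74.3% at 2 and 93.9% at 3, and 3.79% of calls were false; the simulation used 1 spread per gene, while replicate SDs were 0.546 in Maraviroc IC50 and lay between 0.277 and 0.366 for the other groups with replicates.

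The comparison, the families and the genes to be named were chosen with earlier results of these data known. Families are lists written by hand or by gene symbol; those of at least 6 members were ranked by the share called in each direction, apart from a cell cycle list. Named genes were the 12 largest called rises and falls outside that list and outside the 8 largest each way. For these, all 4 arrays had to be above the floor, and the groups could not overlap. Added were up to 4 called members with the smallest p in each direction of each described family, the chemokine receptors above the floor and the cell type markers. Other genes named were chosen after their values were seen. Promoters were those of 14250 genes in a RefSeq table (GRCh38.p14), searched for 2 motifs; no source used here gives the build behind the array design. The alternatives were the 4 arrays alone, array weights, all 5 control arrays, 4 normalizations between arrays, values raised to the floor, a filter on dim genes, limma-trend, each array left out, the replicate block and the mean of a gene's probe sets. Python 3.11.15, pandas 2.3.3, numpy 2.4.6 and matplotlib 3.10.9 made the tables and figures.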

Additional observations from a re-analysis of the deposited data

How the results depend on the processing

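Of 4778 calls, 2399 were made with the 4 arrays alone, and 2391 of them were among the 4778. Leaving out 1 array gave between 2995 calls, without ethanol replicate 1, and 5080, without Maraviroc IC50 replicate 1. Rises, 2122 as deposited, numbered 815 with the 4 arrays alone, 1237 with array weights, 3429 with all 5 control arrays and 3346 under a common interquartile range, and 1105 to 2377 with 1 array left out; falls, 2656 as deposited, numbered 1584 with the 4 arrays alone and 1853 to 2703 with 1 array left out. The other alternatives gave counts within 1.5 times of these. Without a Maraviroc IC50 array the pooled spread lacks its most variable group, so the counts of those fits are likely too high. The median difference of all genes was 0.11 as deposited, 0.28 after median centring, 0.21 under a common interquartile range, 0.00 once values were raised to the floor, -0.031 with the filter on dim genes and -0.0052 under cyclic loess; the SD of array medians between replicates was 0.045. The labels do not say what a replicate number shares, and 2 numbers are too few to settle a pairing from the data: deviations of same-numbered arrays correlated at 0.122 between Maraviroc IC50 and ethanol and at 0.252 between Maraviroc IC20 and ethanol. Of the 156 called genes named, 110 were called in every alternative and ENO1 reversed, to 0.23 under a common interquartile range; of the 9 named genes that were not called, CCN1, FN1, CHAC1, ACKR2 and XCR1 changed sign over the alternatives. With the replicate block 4821 genes were called, 2127 higher and 2694 lower, and 4653 were shared.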

Other observations

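Families outside the 16 described above also held genes that moved in both directions. Subunits of respiratory complexes II to IV had 11 of 37 members called higher and 4 lower (background 12% and 15%), with a median of 0.41. COX6C, a subunit of cytochrome oxidase, read 12.25 and 12.56 under Maraviroc IC50 and 10.10 and 10.30 under ethanol (2.21 ± 0.25), and UQCRB, of complex III, read 12.15 and 12.71 under Maraviroc IC50 and 9.99 and 10.40 under ethanol. The groups were separate for both, and 6 of the 11 rises but none of the falls held in every alternative. Without ethanol replicate 1 there were 7 rises and no fall, and without Maraviroc IC50 replicate 1 there was 1 fall. Mitochondrial ribosomal proteins leaned the other way, with 23 of 74 members called lower and 6 higher and a median of -0.19. That lean depended on the scaling: under a common interquartile range 9 members were called lower and 18 higher, with a median of 0.16. The falls numbered 15 without Maraviroc IC50 replicate 2, 13 without ethanol replicate 1 and 14 without ethanol replicate 2, and the rises then numbered 12, 2 and 3; without Maraviroc IC50 replicate 1 there were 3 rises. MRPL46 read 8.52 and 8.60 under Maraviroc IC50 and 10.65 and 10.40 under ethanol (-1.97 ± 0.31), and MRPL14 rose by 1.44 ± 0.27. Phosphoinositide and sphingolipid enzymes had 6 of 25 members called higher and 1 lower, with a median of 0.63, or 0.13 without Maraviroc IC50 replicate 1 and 0.29 without ethanol replicate 1. SPHK1, which makes sphingosine 1-phosphate, read 11.38 and 11.86 under Maraviroc IC50 and 8.44 and 8.93 under ethanol (2.93 ± 0.29), UGCG, which makes glucosylceramide, rose by 2.61 ± 0.32, and SGMS2, a sphingomyelin synthase, fell by 2.06 ± 0.35.

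Exosome and RNA decay factors had 12 of 33 members called lower and 3 higher, with a median of -0.54, and 8 of the falls but none of the rises held in every alternative. Under a common interquartile range the median was -0.01. CNOT10, of the CCR4-NOT deadenylase complex, read 6.52 and 6.15 under Maraviroc IC50 and 9.02 and 9.56 under ethanol (-2.96 ± 0.29), and EXOSC10, a nuclease of the exosome, fell by 2.01 ± 0.30. Both stayed above the floor with no overlap between the groups. On the second Maraviroc IC50 array, however, CNOT10 at 6.15 lay below that array's own negative control percentile of 6.46. Proteasome subunits had 13 of 44 members called lower and 4 higher, with a median of -0.39. Under a common interquartile range 6 were called lower and 16 higher, with a median of 0.16, and without Maraviroc IC50 replicate 2 the counts were 11 and 12. The falls numbered 8 without ethanol replicate 1, and the median was -0.20. PSMD1, a subunit of the regulatory cap, read 8.49 and 8.60 under Maraviroc IC50 and 11.14 and 11.21 under ethanol (-2.63 ± 0.29), whereas PSMA5, of the core ring, read 14.36 and 13.33 under Maraviroc IC50 and 11.77 and 11.52 under ethanol (2.20 ± 0.32). The 2 subunits moved in opposite directions, and the groups were separate for each. These families and genes were chosen after their values were seen.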
